A study of Mus musculus with 15 samples.

Results

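The Cxcl9-Cxcl10-Cxcl11 chemokine cluster was examined as a window on chromosome 5, from 92730000 to 92820000 of mouse genome build mm9, in 15 ATAC-seq libraries of bone marrow-derived macrophages. ATAC-seq marks the DNA that a transposase can reach, and each library came with its own list of called peaks. Every peak overlapping the window was taken, which gave 198 of the 1041543 nuclear peaks, and peaks of different libraries that shared at least 1 bp were merged into 14 of the 104855 regions of the whole series. The rule placed Cxcl9 near 92.75 Mb, Cxcl10 near 92.78 Mb and Cxcl11 near 92.79 Mb, and the window was divided at the midpoints, 92765000 and 92785000, into a Cxcl9 segment with 6 regions, a Cxcl10 segment with 2 and a Cxcl11 segment with 6. The cells were grown from the marrow of C57BL/6 mice in medium conditioned by L929 cells, which secrete a growth factor for macrophages, and were taken on day 7. They were left untreated, or received lipopolysaccharide (LPS, the bacterial ligand of the receptor TLR4) at 10 ng/ml, and 3 libraries were made after 30 min, 3 after 1 h, 3 after 2 h and 3 after 4 h, which with the 3 untreated ones gives 15 libraries in 5 groups. The labels do not say whether replicates came from separate mice or cultures, so the scatter between replicates behind the p-values may be technical. Tests of all LPS libraries against the untreated ones pool the LPS times, so changes over time enter their spread as well. No annotation of mm9 was used, so neither the macrophage identity of the cells nor other genes of the pathway could be checked at their positions.

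CXCL9, CXCL10 and CXCL11 are chemokines that bind the receptor CXCR3, carried by activated T cells and natural killer cells, and draw these cells to sites of infection. Cxcl9 is known chiefly as a target of interferon-gamma, while Cxcl10 also responds to type I interferon and to NF-kappaB. In macrophages LPS acts through TLR4 on NF-kappaB and on the factor IRF3, and the interferon-beta that follows acts back on the same cells through the type I interferon receptor. RefSeq lists Cxcl11 as a transcribed pseudogene in its gene table of GRCm38.p6, the assembly of C57BL/6J, a substrain of C57BL/6. Peaks show accessible DNA and say nothing of how much of a chemokine was made.

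The bases upstream of the gene starts are shown as a description. The peak next to Cxcl10 was itself the origin of the distances given below, so its place at Cxcl10 was set and not found. A peak stood at the spacing of the Cxcl9 start in 5 libraries. RefSeq promoter sequences matched 2 of the 3 genes, Cxcl9 and Cxcl10. They are the 250 bases before each start, 5′ to 3′ on the minus strand of build GRCm38.p6, chr5:92328080-92328329 for Cxcl9 and chr5:92348890-92349139 for Cxcl10. Capitals mark matches on either strand to GAAA, any 2 bases and GAAA (resembling the element bound by interferon-activated factors, ISRE), to GGG, any 3 or any 2 bases and TTCC (resembling NF-kappaB sites) and to TGANTCA (resembling AP-1 sites).
Cxcl9: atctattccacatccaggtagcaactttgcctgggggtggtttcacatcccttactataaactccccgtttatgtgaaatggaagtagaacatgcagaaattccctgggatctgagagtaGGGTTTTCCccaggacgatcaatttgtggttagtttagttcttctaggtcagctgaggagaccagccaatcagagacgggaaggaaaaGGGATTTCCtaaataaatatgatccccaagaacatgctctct
Cxcl10: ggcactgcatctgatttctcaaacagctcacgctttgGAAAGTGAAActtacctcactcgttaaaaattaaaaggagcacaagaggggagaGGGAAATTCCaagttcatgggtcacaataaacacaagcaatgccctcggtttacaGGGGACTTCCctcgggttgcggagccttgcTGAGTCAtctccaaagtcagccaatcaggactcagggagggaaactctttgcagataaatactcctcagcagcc
In Cxcl10 the capitals are, in order, the ISRE-like GAAAGTGAAA, which begins 213 bases before the start, the NF-kappaB-like GGGAAATTCC and GGGGACTTCC, which begin at 159 and 104 bases, and the AP-1-like TGAGTCA at 74 bases. The shorter NF-kappaB motif also matched within the second of these, as GGGACTTCC. In Cxcl9 the capitals are GGGTTTTCC and GGGATTTCC, 130 and 42 bases before the start. Among 32851 promoter stretches of the same length, 2.98% held the ISRE-like motif, 4.65% the longer and 4.98% the shorter NF-kappaB-like motif, 6.75% the AP-1-like motif and 0.222% the ISRE-like motif together with either NF-kappaB-like one. A search for TTCNNNGAA (resembling the interferon-gamma element GAS), which 7.02% of these promoters held, found no match in these bases of Cxcl9 or Cxcl10. These matches describe the letters and do not show binding.

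The peaks could be set beside the genes by distance, without carrying coordinates from one build to the other. The peak next to Cxcl10 was 1596 bp wide on average in untreated cells, and its centre served as zero, so that distances are loose by about that width. In GRCm38 the starts of Sdad1, Cxcl9, Art3 and Cxcl11 lie at −38.9, −20.8, −17.1 and 14.4 kb from the start of Cxcl10. Sdad1 and Art3 are neighbours that encode no chemokine, and Art3 runs on the opposite strand to Cxcl9 and Cxcl10, from its start across Cxcl10 and Cxcl11 to the far side of the cluster. A peak stood at the distance of Sdad1 in 15 of 15 libraries and at that of Art3 in 13. All 12 LPS libraries had a peak at the distance of Cxcl11, and 0 of the 3 untreated libraries did. The distance of Cxcl9 was under a peak in 5 libraries, of which 1 was from 1 h, 3 from 2 h and 1 from 4 h. Peaks at the same spacing do not prove that a peak is the promoter of that gene.

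**Figure D1:**
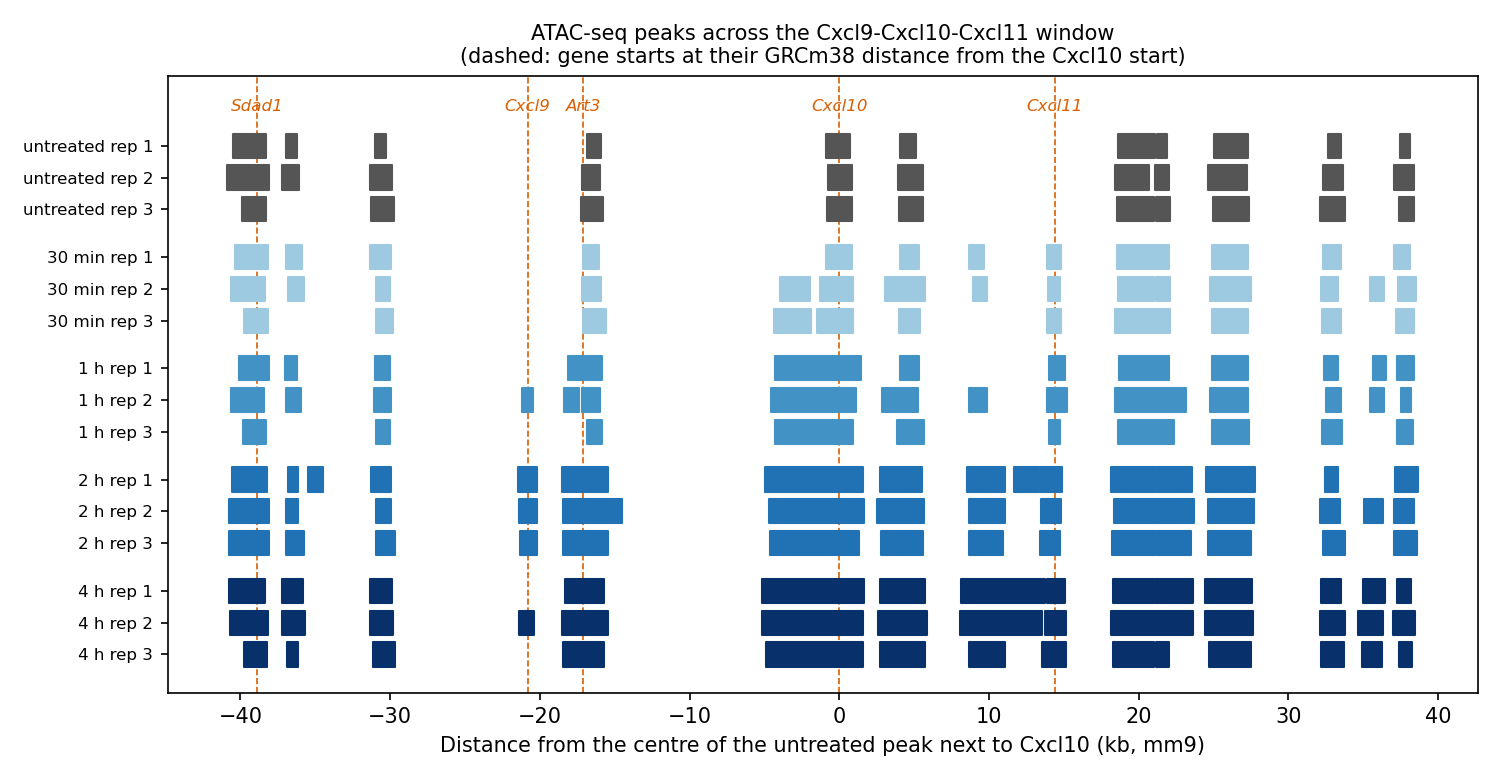
Peaks of the 15 libraries across the window, with 1 row per library and time running down the page, plotted as distance in kb from the centre of the untreated peak next to Cxcl10, with dashed lines at the GRCm38 distances of the gene starts. Peaks at the Cxcl10 line are present throughout and extend to the left from 1 h on, all 12 LPS rows and no untreated row have a peak at the Cxcl11 line, and all 3 rows of 2 h have one at the Cxcl9 line.

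Resting macrophages already had 9 of the 14 regions open, in the sense that these carried a peak in all 15 libraries (64.3%, against 33.2% of regions over the genome). They included both regions of the Cxcl10 segment. No region of the window was lost at any LPS time, where lost means a peak in 3 of 3 untreated libraries and in 0 of 3 LPS libraries. Over the genome 0.277% of regions were lost after 30 min of LPS, 1.2% after 1 h, 0.817% after 2 h and 1.07% after 4 h. Gained regions, those with a peak in 3 of 3 LPS libraries and in 0 of 3 untreated ones, numbered 1 of 14 at 30 min (7.14%, against 0.75% of all regions), 1 at 1 h (7.14%, against 1.67%), 2 at 2 h (14.3%, against 5.03%) and 2 at 4 h (14.3%, against 2.79%). With so few regions a single one moves these shares by 7.14 percentage points.

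The region next to Cxcl10, at 92772847 to 92779717, was open before LPS and became several times wider. The length under its peaks was 1598, 1554 and 1635 bp in the untreated libraries, 1727, 4178 and 4801 bp at 30 min, 5649, 5683 and 5249 bp at 1 h, 6515, 6376 and 5919 bp at 2 h and 6830, 6732 and 6503 bp at 4 h. All 12 LPS libraries lay above all 3 untreated ones, narrowly so in replicate 1 at 30 min. The mean at 4 h was 6688 ± 168 bp, against 1596 ± 41 bp in untreated cells (SD, n = 3 each), a ratio of 4.19. An exact two-sided permutation test of the 12 LPS libraries against the 3 untreated ones gave p = 0.0022, the smallest that 455 splits allow. Adjusted over all 104855 regions by Benjamini and Hochberg it was 0.166, which was also the smallest adjusted p of any region, so 0 regions of the genome passed (5.92% were higher at an unadjusted p under 0.05).

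The widening went mostly to one side. The lower edge of the peaks lay between 92777165 and 92777308 in untreated cells, between 92773488 and 92773779 at 1 h and between 92772847 and 92773120 at 4 h. The upper edge moved less, and stood between 92779622 and 92779676 at 4 h, against 92778762 to 92778882 in untreated cells. Cxcl10 is on the minus strand and is 2.25 kb long in GRCm38, so the added length lay on the side of its transcribed body and beyond its end. The genome was also divided into bins of 500 bp, where a bin counts as open in a library if a peak touches it by at least 1 bp, so that runs of bins can reach past the peaks. The 7 bins from 92773501 to 92777000 were each touched in all 3 libraries of 1 h and in no untreated library, and so were the 8 bins from 92773001 to 92777000 at 2 h and at 4 h. At 30 min, replicates 2 and 3 already had a separate peak there, of 1975 and 2431 bp, and replicate 1 had none.

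The other region of the Cxcl10 segment, at 92780564 to 92783866, lay about 4.4 kb upstream of the Cxcl10 peak. Its peaks covered 1050, 1674 and 1622 bp in untreated libraries, 1276, 2675 and 1392 bp at 30 min, and 1228, 2371 and 1793 bp at 1 h, so these groups overlapped. They covered 2805, 3165 and 2791 bp at 2 h and 2988, 3262 and 3009 bp at 4 h, above every untreated library. At 2 h the mean was 2920 ± 212 bp, against 1449 ± 346 bp in untreated cells (SD, n = 3 each). Over all LPS libraries against untreated ones the exact permutation p was 0.0835, and 0.588 after adjustment over all regions. Replicate 2 was the widest library of this region in each of the 5 groups.

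Cxcl11 lay at the one region of the window that was gained at every LPS time, at 92786106 to 92793242. No untreated library had a peak there. How many regions over the genome were gained at every LPS time was not counted here. The call at 30 min was lost with scores of at least 100, since the peak of replicate 3 scored 60.62. The length under peaks was 1948, 1720 and 941 bp at 30 min, 1081, 2495 and 738 bp at 1 h, 5574, 3812 and 3570 bp at 2 h and 6827, 6919 and 4090 bp at 4 h. Fisher's exact test of presence in 12 LPS against 3 untreated libraries gave p = 0.0022, its smallest possible value, and an adjusted p of 0.2, at which 0 of 36919 regions passed (5.69% were open more often with LPS at an unadjusted p under 0.05). An exact test of trend over the ordered times gave p = 0.0044 and a Benjamini-Hochberg adjusted p of 0.0583, above the threshold of 0.05. Over the genome 2.13% of 36919 regions passed that test with more peaks at later times and 0.2% with fewer. No region of the window passed it. The other 3 regions of the window that had a peak in 3 to 12 libraries were tested as well, with adjusted p of 0.219, 0.339 and 0.61.

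The peaks of the Cxcl11 region fell mostly in 2 stretches, an upper one at the spacing of the gene's start and a lower one. At 30 min the upper stretch held peaks at 92791929 to 92792870, 92791973 to 92792760 and 92791923 to 92792863, and at 1 h at 92792022 to 92793102, 92791923 to 92793242 and 92792022 to 92792759. All 6 lay at the distance of the Cxcl11 start. Replicates 1 and 2 at 30 min and replicate 2 at 1 h had a further peak at the lower end of the region. At 2 h all 3 libraries had a peak in the lower stretch, at 92786570 to 92789089, 92786680 to 92789121 and 92786720 to 92788993. Replicate 1 at 2 h also had a peak between the stretches, at 92789741 to 92791344. The upper stretch held a peak in all 3 libraries at 2 h and in all 3 at 4 h. At 4 h replicates 1 and 2 carried single peaks of 5615 and 5499 bp that ran from the lower stretch towards the upper one, and the peak of replicate 3 in the lower stretch was 2437 bp wide. In GRCm38 Cxcl11 extends between 10.7 and 14.4 kb from the Cxcl10 start, which lies within the span of this region.

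The region at the spacing of Cxcl9, 92756592 to 92757850, had no peak in untreated cells or at 30 min, 1 peak of 725 bp at 1 h (replicate 2), peaks of 1255, 1199 and 1147 bp at 2 h and 1 of 956 bp at 4 h (replicate 2). Its peaks were weak in their lists: at 2 h they scored 141.56, 59.1 and 113.54 on the peak caller's own scale, which started at 50. It met the rule for gained at 2 h, and no longer did with scores of at least 100 or with lists of equal length. Whether it differed between 2 h and 4 h was not tested. Where a library lacks a peak, its DNA may still have been accessible below the caller's threshold.

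The neighbouring region at the spacing of the Art3 start, 92759495 to 92763494, had a peak in all 15 libraries. By length, LPS and untreated cells first separated at 2 h, while by score they did so at 1 h. The best scores there were 167.39 to 617.26 at 1 h, against 67.9 to 135.17 in untreated cells. Its peaks covered 923, 1209 and 1455 bp in untreated libraries and 1095, 1287 and 1585 bp at 30 min. They covered 2251, 2281 and 994 bp at 1 h, with replicate 3 inside the untreated range. At 2 h they covered 3069, 3900 and 3038 bp, and at 4 h 2639, 3052 and 2736 bp, all above the untreated libraries. The ratio of means was 2.79 at 2 h and 2.35 at 4 h, against untreated cells. The exact permutation p over all LPS libraries was 0.0681, and 0.536 after adjustment over all regions.

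Beyond Cxcl11, inside the span of Art3, lay the regions with the most bases under peaks in untreated cells, at 92796165 to 92801725 and at 92802444 to 92805827. The first covered 3133, 3188 and 3377 bp in untreated libraries, 3487, 3307 and 3684 bp at 30 min and 3382, 4578 and 3683 bp at 1 h. It covered 5299, 5299 and 5225 bp at 2 h and 5301, 5493 and 3596 bp at 4 h. This first region lay above untreated cells at 1 h, 2 h and 4 h (exact permutation p = 0.0418 over all LPS libraries, adjusted p = 0.451). At 1 h the margin was very narrow, with the lowest library at 3382 bp and the highest untreated one at 3377 bp. The second covered 2260, 2627 and 2388 bp in untreated libraries, 2411, 2771 and 2409 bp at 30 min, 2422, 2523 and 2431 bp at 1 h, 3325, 3099 and 2896 bp at 2 h and 3137, 3194 and 2812 bp at 4 h. It averaged 3107 ± 215 bp at 2 h and 3048 ± 206 bp at 4 h, against 2425 ± 186 bp in untreated cells (SD, n = 3 each). All libraries at 2 h and 4 h lay above the untreated ones in this second region (adjusted exact permutation p = 0.669 over all LPS libraries).

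The region at 92812668 to 92814536, farther along the Cxcl11 segment, was gained at 4 h. It had no peak in untreated cells, 1 of 921 bp at 30 min (replicate 2), peaks of 852 and 906 bp at 1 h (replicates 1 and 2) and 1 of 1243 bp at 2 h (replicate 2). At 4 h all 3 libraries had one, of 1511, 1687 and 1331 bp. Its exact trend p was 0.0485 and the adjusted p 0.219.

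Other regions of the window were open in all libraries, and at each time their LPS libraries overlapped the untreated ones. At the spacing of Sdad1, 92737180 to 92739980, peaks covered 2191, 2775 and 1595 bp in untreated libraries, 2232, 2221 and 1608 bp at 30 min, 2019, 2188 and 1558 bp at 1 h, 2336, 2688 and 2649 bp at 2 h and 2402, 2512 and 1535 bp at 4 h. The mean there was 2150 ± 535 bp at 4 h, against 2187 ± 590 bp in untreated cells (SD, n = 3 each). Between Sdad1 and Cxcl9, at 92746668 to 92748377, peaks covered 717, 1431 and 1504 bp in untreated libraries, 1361, 981 and 1129 bp at 30 min, 1048, 1102 and 962 bp at 1 h, 1329, 1025 and 1283 bp at 2 h and 1510, 1545 and 1468 bp at 4 h. The untreated libraries of this region scattered more widely than those of any LPS time. At the far end of the Cxcl11 segment, 92810136 to 92811814, they covered 864, 1350 and 1654 bp in untreated libraries, 1146, 1126 and 1229 bp at 30 min, 907, 1002 and 1362 bp at 1 h, 864, 1359 and 1456 bp at 2 h and 1361, 1679 and 1563 bp at 4 h. At 92815023 to 92816687 they covered 697, 1359 and 1005 bp in untreated libraries, 1100, 1190 and 1175 bp at 30 min, 1142, 682 and 1103 bp at 1 h, 1506, 1341 and 1534 bp at 2 h and 952, 1467 and 871 bp at 4 h. Of the remaining regions, that at 92740804 to 92742382 had a peak in 10 of 12 LPS and 2 of 3 untreated libraries, with lengths of 674 to 1570 bp where one was called, and that at 92742587 to 92743584 had 1 peak of 998 bp, at 2 h.

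**Figure D2:**
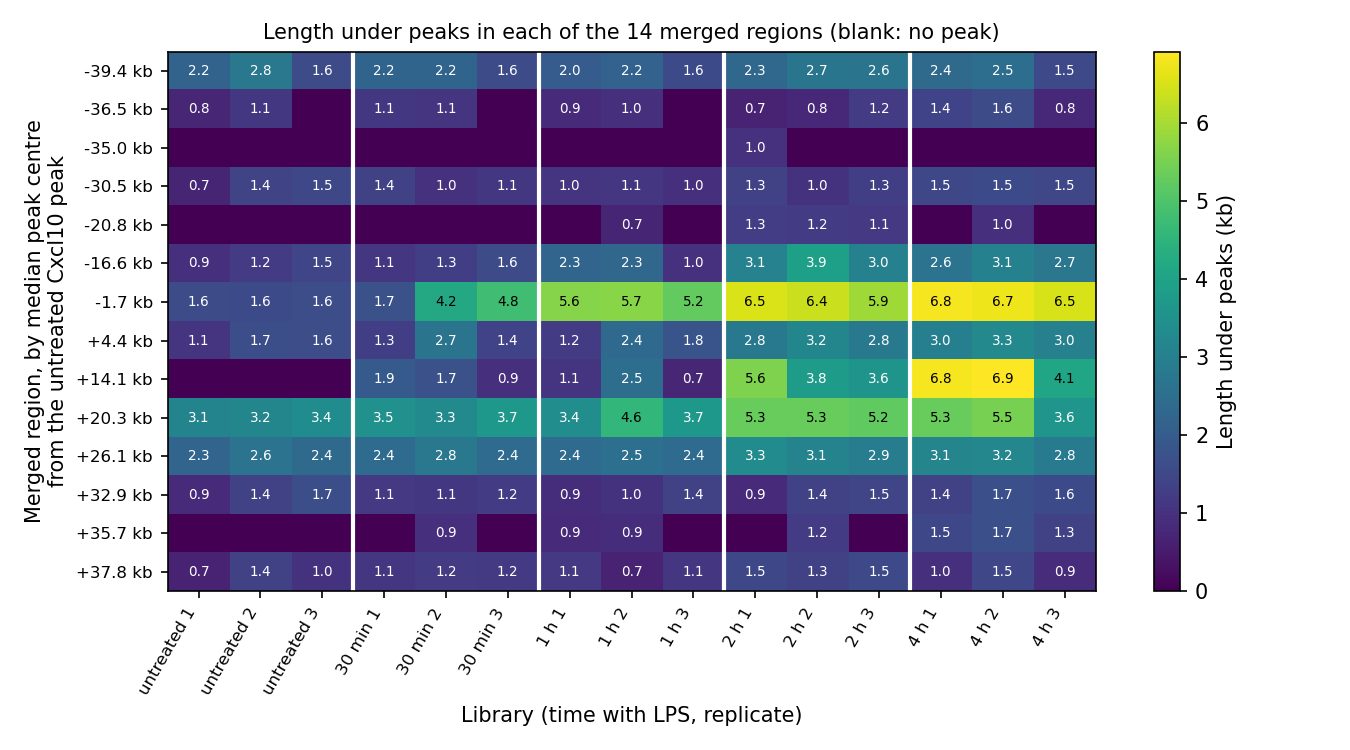
Length under peaks in kb for each of the 14 regions (rows, by distance from the untreated Cxcl10 peak) in each library (columns, by time), with blank cells where no peak was called. The row at −1.7 kb, next to Cxcl10, is wide from 1 h on, the row at +14.1 kb, at Cxcl11, is blank in untreated cells alone, and the row at −20.8 kb, at Cxcl9, is filled in all 3 libraries of 2 h.

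Counted over the 14 regions, the length under peaks was above every untreated library in 3 of 3 LPS libraries for 2 regions at 30 min (14.3%, against 3.72% of all regions), 3 at 1 h (21.4%, against 4.98%), 7 at 2 h (50%, against 13.9%) and 7 at 4 h (50%, against 9.02%). Of the 3 at 1 h, the region at 92796165 cleared the untreated libraries by a very narrow margin. The length was below every untreated library for 0 regions at each time, against 2.52%, 6.52%, 3.6% and 3.66% of all regions. The 2 sets differ in make-up, since 64.3% of the 14 regions and 33.2% of all regions had a peak in all 15 libraries. A region with a peak in fewer than 3 libraries cannot meet either rule. The mean over LPS libraries was higher than over untreated ones for 12 of the 14 regions, with a median difference of 401 bp, against a median of 75.6 bp over all regions, of which 62.1% were higher.

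In bins of 500 bp, which see the widening of regions that were already open, 99 bins of the window had a peak in at least 1 library. Of these, 3.03% were gained at 30 min (1% of bins over the genome), 9.09% at 1 h (1.96%), 30.3% at 2 h (5.29%) and 29.3% at 4 h (3.21%). At 1 h, 7 of the 9 gained bins lay in the Cxcl10 segment, and at 30 min all 3 lay in the Cxcl11 segment. At 2 h the gained bins numbered 6 in the Cxcl9 segment, 11 in the Cxcl10 segment and 13 in the Cxcl11 segment, and at 4 h 2, 12 and 15. No bin of the window was lost at any time, against 0.343%, 1.26%, 0.827% and 0.945% over the genome. Neighbouring bins share peaks and are not independent.

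The 3 segments followed different courses in these values. In the Cxcl9 segment the length under peaks was 5223 ± 1135 bp in untreated cells, 5232 ± 798 bp at 30 min, 5651 ± 1928 bp at 1 h, 9526 ± 180 bp at 2 h and 8033 ± 1563 bp at 4 h (SD, n = 3 each). It cleared every untreated library at 2 h and overlapped the untreated range by 1 library at 4 h. Much of that added length belonged to the region at the Art3 spacing, which averaged 3336 ± 489 bp at 2 h and 2809 ± 216 bp at 4 h, against 1196 ± 266 bp in untreated cells (SD, n = 3 each), and both bins gained in this segment at 4 h lay there. In the Cxcl10 segment it was 3044 ± 344 bp in untreated cells, 5350 ± 2059 bp at 30 min, 7324 ± 637 bp at 1 h, 9190 ± 430 bp at 2 h and 9775 ± 244 bp at 4 h. Its libraries at 1 h lay above those at 30 min by a very narrow margin, 6877 bp at the lowest against 6853 bp at the highest. At 30 min replicate 1 was lower than the others, at 3003 bp. The libraries at 2 h lay above those at 1 h, while 2 h and 4 h overlapped. In the Cxcl11 segment it was 7967 ± 879 bp in untreated cells, 10188 ± 803 bp at 30 min, 10430 ± 1539 bp at 1 h, 15801 ± 992 bp at 2 h and 17930 ± 3247 bp at 4 h. Here the step between neighbouring LPS times that separated all libraries was the one to 2 h. The lists as a whole covered 107, 113 and 84 Mb at 1 h and 126, 128 and 112 Mb at 2 h. The steps between neighbouring times were not scaled to these totals. How many tiles over the genome make the same steps was not counted. Whether the segments differed in their response was not tested.

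**Figure D3:**
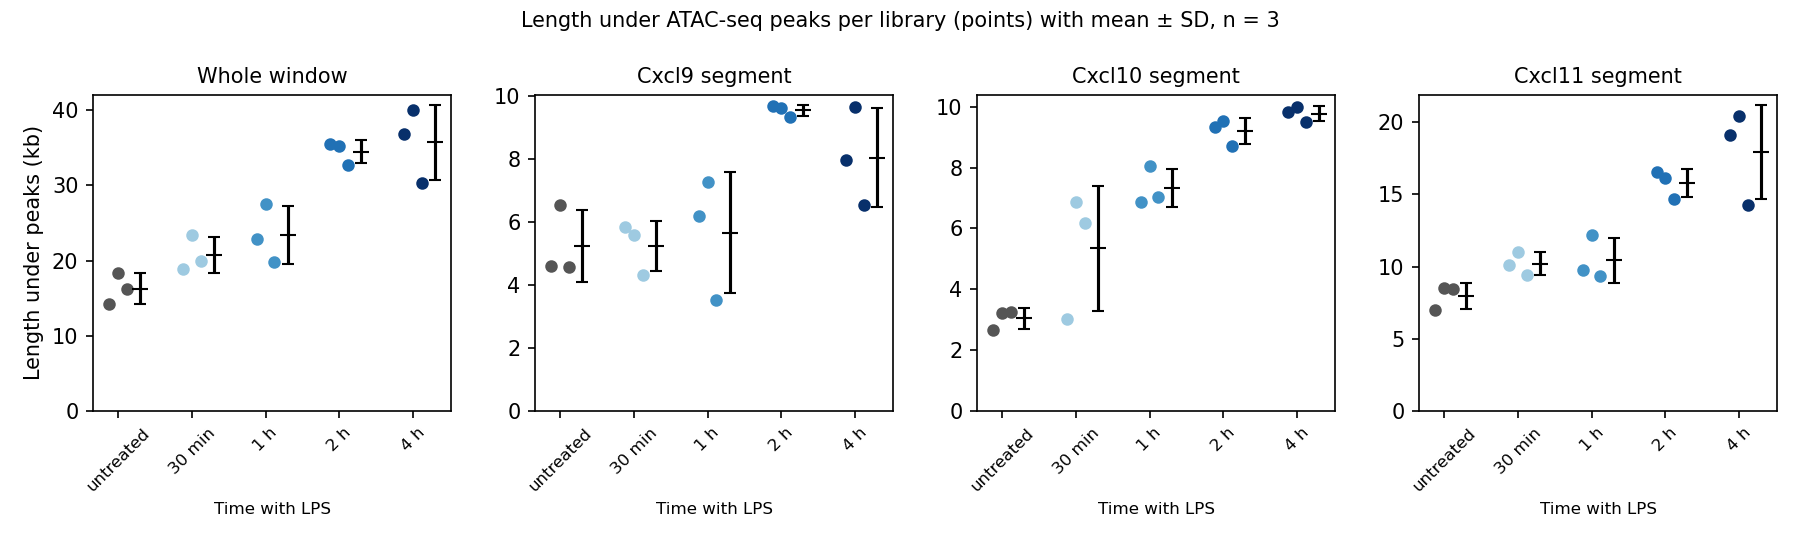
Length under peaks in kb against time with LPS, for the whole window and its 3 segments, with a point per library and the mean ± SD (n = 3) beside them. The 3 libraries at 2 h lie above the 3 untreated ones in each panel, while at 30 min the Cxcl9 and Cxcl10 segments overlap untreated cells.

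Over the whole window, peaks covered 14183, 18285 and 16235 bp in untreated libraries, 18909, 23449 and 19953 bp at 30 min, 22842, 27500 and 19873 bp at 1 h, 35549, 35290 and 32712 bp at 2 h and 36858, 40068 and 30288 bp at 4 h. Every LPS library lay above every untreated one. The means at 2 h and 4 h were 2.13 and 2.2 times that of untreated cells. An exact two-sided permutation test of 3 against 3 cannot go below 0.1, and it gave 0.1 at each of the 4 times. Of all tiles of 90 kb over the genome, 4.81% separated in this direction after 30 min and 2.04% in the other, 5.71% and 7.51% after 1 h, 22.8% and 3.55% after 2 h, and 11.9% and 3.2% after 4 h. Ranked by the difference in means, the window was tile 290 of 16387 for 30 min of LPS, 260 for 1 h, 101 for 2 h and 52 for 4 h. These ranks are by bp and were not set against the length each tile had under peaks in untreated cells. In the window that length was already 16234 bp on average, and a comparison with tiles of similar length was not made. The 12 LPS libraries exceeded the 3 untreated ones by 12373 bp on average (exact permutation p = 0.0132, adjusted p = 0.288 over all tiles). The smallest adjusted p of any tile was 0.175, so 0 tiles passed, and 7.34% were higher at an unadjusted p under 0.05.

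**Figure D4:**
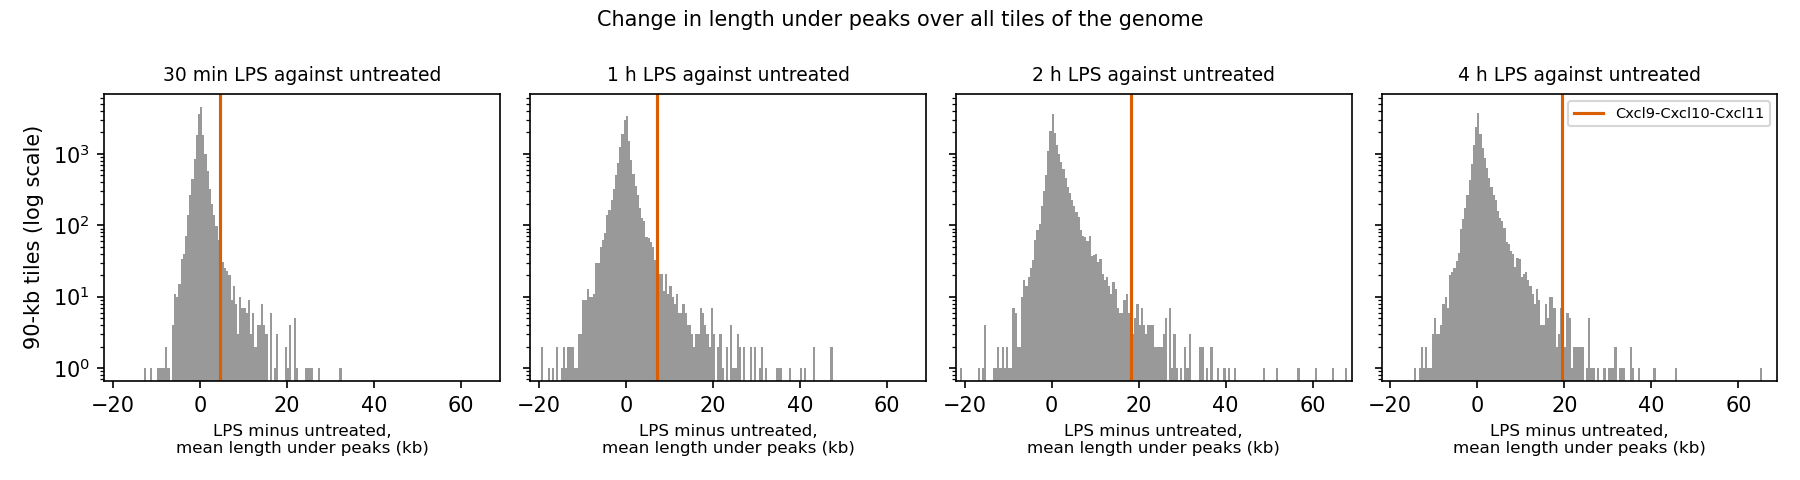
Number of 90-kb tiles of the genome (log scale) by the mean length under peaks in kb at each LPS time minus that in untreated cells, with the chemokine window as a vertical line. The window stands at 4.54 kb for 30 min, 7.17 kb for 1 h, 18.3 kb for 2 h and 19.5 kb for 4 h, in the right tail of the tiles at each time. Tiles are not matched for their length under peaks in untreated cells.

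The lists differed in length, from 52449 to 82224 peaks, and among the LPS groups the shortest was always that of replicate 3. Read depth is unknown, and values carry no counting interval for that reason. At 4 h replicate 3 had the fewest bases under peaks in the window and the narrowest Cxcl11 region. Their part in the results was not tested beyond the alternatives given here. Scaled to the same total length under peaks in every library, the window still exceeded untreated cells by 4220 bp after 30 min, 7420 bp after 1 h, 13113 bp after 2 h and 16548 bp after 4 h. On that scale the 30 min libraries overlapped the untreated ones, and those of the later times lay above them. Of all tiles on that scale, 5.96% lay above after 30 min, 9.48% after 1 h, 14.7% after 2 h and 12.7% after 4 h. All LPS libraries together exceeded untreated ones by 10325 bp (exact permutation p = 0.00879, adjusted p = 0.103), where 7.05% of tiles were higher at an unadjusted p under 0.05.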

How the data were processed

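ATAC-seq peaks of 15 libraries were read from 1 deposited list per library. Per the submitters' processing notes the authors used Bowtie 1.1.2 and MACS 1.4 on build mm9; the sources do not give settings, the handling of duplicates, a read shift or a blacklist. Each deposited score is the authors' peak caller's own value within its list, and served only to describe or filter peaks. Start and end are bp, printed with the first base as 1. List length differs between libraries and bears on every measure here.

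Groups and replicate numbers came from the titles. Mitochondrial peaks were left out. Length under peaks was summed per library in regions, in 500-bp bins and in 90-kb tiles laid out so that the window was 1 tile. Tests were exact permutation tests of means (12 against 3, and 3 against 3), Fisher's exact test and an exact trend test on regions with 3 to 12 libraries, all two-sided. Benjamini and Hochberg adjustment at 0.05 ran over all regions or all tiles for 12 against 3. For Fisher's test and the trend test it ran over the 36919 regions tested. The 3 against 3 tests were not adjusted. Scripts ran in Python 3.11.15 with numpy 2.4.6 and scipy 1.17.1 and were tested on simulated data. No 2 lists shared more than 13 identical intervals.

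The window, genes and tests were chosen with earlier results of these data known, and the length per region, the gene spacing and the promoter motifs were added after the lists had been seen. All regions of the window are accounted for: those gained, called by the trend test, open in all libraries or widest in their segment are given with their values. Planned looks at macrophage markers and at other genes of the CXCR3 and interferon pathway need positions on mm9 and were not analysed here. Alternatives were a score of at least 100, lists of equal length (52447 peaks), equal total length, a window narrowed by 10 kb at either end, 50% coverage of a region, 500-bp bins, regions open in 1 to 14 libraries, a replicate block and each library left out.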

Additional observations from a re-analysis of the deposited data

How the results depend on the processing

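Every LPS time kept more bases under peaks in the window than untreated cells under all alternatives run, while the separation of groups at 30 min did not hold. There the difference of 4536 bp became 2518 bp with scores of at least 100, 2838 bp with lists of equal length and 4220 bp with equal total length, and the groups overlapped in each. At 1 h it was 5177 bp with scores of at least 100, again with overlap. Leaving out single libraries gave 3197 to 5561 bp at 30 min, 5123 to 8937 bp at 1 h, 17257 to 19308 bp at 2 h and 17339 to 22229 bp at 4 h, and 11331 to 13399 bp for all LPS libraries (adjusted exact permutation p 0.219 to 0.686). Same-numbered libraries of different groups deviated together with correlations of 0.0307 to 0.351, with a median of 0.123, against −0.265 to 0.123 with a median of −0.0849 for different numbers. For 14 of 15 libraries the closest library of another group had the same number, a hint of shared replicate structure from the data. Not all same-numbered correlations exceeded 0.1, so the numbers were not used as pairs. With a replicate block the difference over all LPS libraries stayed 12373 bp (adjusted exact permutation p = 0.291), and the trend test called 0 regions anywhere. It also called 0 with 1 to 14 libraries allowed.

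Counts of gained regions are small and moved. At 30 min the count of 1 became 0 with scores of at least 100 and 0 with 50% coverage, and 3 in bins. At 1 h it became 9 in bins, and 2 without replicate 3 at 1 h (range 1 to 2). At 2 h the count of 2 became 1 with scores of at least 100, 1 with equal length, 4 with 50% coverage and 30 in bins. At 4 h it became 4 with 50% coverage and 29 in bins. Lost regions stayed at 0 throughout. The trend test, with 0 regions of the window, called 2 with equal length (the regions beginning at 92786106 and 92812668), 2 with 50% coverage (those beginning at 92759495 and 92786106), 7 bins, and 0 to 1 without single libraries. The 1 was the Cxcl11 region, called without 30 min replicate 1, 2 or 3 and without 4 h replicate 3, so its adjusted p depends on single libraries. When an untreated library was left out, this region had a peak in too many of the remaining libraries to be tested. The count of 0 in those runs therefore says nothing about it.

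Small differences changed sign, none of them called. That of the region at 92740804 was −39.5 bp with equal length, and that at 92746668 was −93.1 bp with scores of at least 100, −271 bp with equal length and −76.5 bp with equal total length. Leaving out single libraries gave −321 to 269 bp at 92737180, −64.9 to 494 bp at 92740804, −239 to 155 bp at 92746668, −248 to 148 bp at 92810136 and −10.1 to 321 bp at 92815023. Depth is unknown, so a library without a peak at Cxcl9 cannot be read as closed there.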

Other observations

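The standing of the peaks by score, within lists reduced to the same number of peaks, adds a description that the lengths do not carry. The strongest peak next to Cxcl10 stood at percentiles 57.5 to 61.1 of the untreated lists, 80.6 to 91.4 at 30 min and 88.5 to 97 at 1 h. The region upstream of it stood at 53.7 to 59.8 in untreated lists, 75.1 to 86.1 at 30 min and 81.1 to 88.6 at 1 h, and for both regions the untreated range lay below these. At 2 h and 4 h both regions scored 3100, a value that many peaks share, in all 6 libraries, except that the upstream one scored 2275.57 in replicate 3 at 4 h, so percentiles there would give the share of tied peaks. At 30 min the upstream region thus ranked above untreated cells while its length overlapped them. How many regions over the genome rank above untreated cells in this way, at any time, was not counted. The Cxcl11 region stood at 3.92 to 52.4 at 30 min, 27.8 to 51 at 1 h, 61.1 to 70 at 2 h and 66.5 to 99.9 at 4 h. Its replicate 2 at 4 h was also tied at 3100. The region at the Art3 spacing stood at 2.29 to 19.3 in the 2 untreated lists that held it and at 4.67 to 29.9 at 30 min. It stood at 35 to 55.4 at 1 h, 72.9 to 80.6 at 2 h and 68.8 to 80.1 at 4 h. From 1 h on it thus ranked above untreated cells, while its length separated from 2 h. The region at the Sdad1 spacing stood at 66.8 to 71.2 in untreated lists, 65.3 to 72.3 at 30 min, 68.5 to 75.8 at 1 h, 71.6 to 77.4 at 2 h and 72.5 to 76.7 at 4 h. There 30 min and 1 h overlapped untreated cells, while 2 h and 4 h lay above them, narrowly so at 2 h, although its lengths overlapped at each time. The region at 92810136 behaved alike, at 10 to 29 in untreated lists, 3.19 to 18.8 at 30 min and 21.8 to 30 at 1 h. It stood at 35.7 to 52.4 at 2 h and 38.5 to 57.7 at 4 h. Regions not given here were tied at 3100 in an untreated library or lacked a peak in some of these lists. In the lists 2.54 to 7.27% of peaks were tied at a score of 3100, and these ranks were not tested.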
